A study of Bos taurus with 18 samples.

Results

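The arrays described here compare antral granulosa cells of the bovine preovulatory follicle before and after the surge of luteinising hormone (LH). They are 6 of the 18 arrays of the study, chosen by their labels as antral (aspirated) granulosa, and all 24016 probe sets other than Affymetrix controls were tested. Each array holds RNA of granulosa cells aspirated from the antrum of the single dominant follicle of 1 cow. The follicles of cows D, F and G were taken before LH, whereas those of cows A, B and C were taken 22 h after GnRH, the hypothalamic hormone given to set off the surge. One label counts the 22 h from the surge itself. The study also put the membrane-associated granulosa and the theca of the same 6 follicles on arrays, to set the effects of LH on granulosa and theca side by side. The labels give no breed, age or stage of the cycle for the cows. Different cows stand before and after LH, so each change is a difference between 3 and 3 animals and not a change within an animal.

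Granulosa cells line the follicle around the oocyte and make oestradiol from theca androgen. The LH surge binds the LH receptor on the outer layers, raises cyclic AMP, and spreads inward through EGF-like ligands. The cells then stop dividing, stop making oestradiol, make prostaglandins, proteases and a hyaluronan matrix, and begin to become the luteal cells that make progesterone. Antral granulosa cells are those that lie nearest the follicular fluid or float in it, away from the basement membrane.

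Values are log2 signals. Levels are given in the order of cows D, F and G before LH and of cows A, B and C after it. A change is the mean after LH less the mean before it, so that 1 is a 2-fold change, with its standard error from a spread that all 6 groups of the study share. A gene was called when its adjusted p, from limma with the Benjamini-Hochberg correction over the 24016 probe sets, was under 0.05. For each of the 9155 genes with a symbol, the probe set with the highest mean was used. The 8005 dimmest probe sets had means under 4.62, taken as the limit of useful signal. A gene under that limit on all 3 arrays of a group has its change given as a bound ("at least"), measured from the limit. Genes are ordered by role, from lists and a naming rule given with the processing, and those named beyond that rule were chosen after their values were seen.

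Of the 9155 genes, 1152 (12.6%) were called higher after LH and 1473 (16.1%) lower. Over probe sets the counts were 2473 (10.3%) and 2918 (12.2%). The median change over all genes was -0.03, and list medians are to be read against it. Counts of list members called are to be read against the shares of 12.6% and 16.1%. Without regard to the test, the 3 arrays after LH all lay above the 3 before it for 1805 genes (19.7%) and all below for 2222 (24.3%). Rises reached further than falls. A rise of at least 4 was called for 62 genes and a fall of that size for 24, and 105 called genes rose from below 4.62 on every array before LH. Array medians lay between 5.74 and 5.78, and over probe sets the array of cow A correlated at 0.988 with that of cow B and at 0.979 with that of cow C.

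The label was checked against marker genes. INHA, the inhibin alpha subunit and a defining granulosa product, was among the brightest genes on every array, at 14.58, 14.36 and 14.45 before LH and 14.23, 14.19 and 14.29 after it. It was not called (-0.23 ± 0.13). FSHR, GJA1, FST, SERPINE2 and AMH, all granulosa genes, were above the limit on every array as well, while FOXL2 lay at 4.27, 4.66 and 4.73 before LH and 4.48, 4.24 and 4.27 after it, close to the limit. CYP17A1, the enzyme that makes theca androgen, was low throughout at 5.81, 5.40 and 5.42 before LH and 5.65, 5.06 and 4.78 after it, although INSL3, a theca hormone, stood at 10.79, 9.92 and 10.04 before LH and 9.28, 10.24 and 11.08 after it. Of 16 endothelial markers only FLT1 was called, and PECAM1, VWF and CDH5 stayed at or below 5.29. TEK, an angiopoietin receptor, lay at 4.84, 4.72 and 4.43 before LH and 5.87, 5.55 and 5.31 after it and just missed the threshold (0.92 ± 0.32, adjusted p = 0.0534). TEK was called higher with quantile normalization, without the dim probe sets, with 1 probe set for each gene, on the antral arrays alone and without cow C (adjusted p = 0.0124 to 0.0474). Limma called none of 7 red cell markers and none of 24 leukocyte markers, with 0 and 2 of them at an unadjusted p under 0.05. The mean level of the 17 granulosa markers was 10.5, 10.4 and 9.99 before LH and 8.69, 8.69 and 8.55 after it, with 9 of them lower and 2 higher. The count of rises was 1 without cow A, cow B or cow F. The largest fall among the granulosa markers was that of CYP19A1, the aromatase, so the list mean is not a count of granulosa cells. Of 10 theca markers 1 rose and 2 fell, and of 7 surface epithelium markers 1 rose and 1 fell. The larger theca fall was that of LHCGR, the LH receptor, which granulosa cells carry as well. The theca list also holds STAR, so its counts are no measure of theca cells alone. The theca markers gave 2 rises without cow B and 1 fall without cow B, C, D or F, and the epithelium rise was lost without cow A, D or G. Of 11 smooth muscle markers 2 rose and 1 fell, and neither rise was called without cow A, cow D, cow F or cow G. Fewer cells of a type and less RNA per cell cannot be told apart on arrays of whole cell populations.

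Receptors for both gonadotropins were lower after LH. LHCGR, the LH receptor, lay at 7.36, 8.19 and 8.83 before LH and 5.14, 5.24 and 5.05 after it, and fell by 2.98 ± 0.35 (adjusted p = 1.09e-05). FSHR, the receptor for follicle-stimulating hormone, lay at 8.55, 8.23 and 7.69 before LH and 6.18, 6.43 and 5.80 after it, and fell by 2.02 ± 0.43 (adjusted p = 0.00251). No array after LH reached the lowest array before it for either receptor. Downstream, the subunits of protein kinase A, the cyclic AMP sensor, moved in opposite directions. PRKAR2A, a regulatory subunit, lay at 10.73, 10.58 and 10.64 before LH and 7.92, 8.20 and 8.58 after it and fell by 2.42 ± 0.21 (adjusted p = 5.53e-07). The catalytic subunits PRKACB (1.59 ± 0.36) and PRKACA (0.54 ± 0.11) rose, as did PDE7B (1.25 ± 0.22), a phosphodiesterase that breaks cyclic AMP down. The G protein gene GNAS and the adenylate cyclases ADCY6 and ADCY7 were not called. Of the 23 measured genes of gonadotropin signalling 4 rose and 4 fell, with a median of 0.09, which is 17.4% each way beside 12.6% and 16.1% of all genes.

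Among genes of EGF-like signalling, SPRY2, which restrains receptor tyrosine kinase signalling, rose by 2.41 ± 0.31 (adjusted p = 3.31e-05). It lay at 7.75, 7.08 and 7.49 before LH and 9.85, 9.39 and 10.30 after it, with no overlap. EGFR, the receptor for these ligands, fell by at least 0.57 (adjusted p = 0.00138). AREG, a ligand that carries the LH signal between cells, was at 3.65, 3.74 and 3.83 before LH and 3.75, 3.74 and 7.85 after it, above 4.62 in cow C only, and was not called. ERRFI1, a feedback inhibitor of EGFR, read -1.76 ± 0.59 (adjusted p = 0.0419), and its call ended without any single cow but C (adjusted p 0.089 to 0.171). The ERRFI1 call also ended on the antral arrays alone (adjusted p = 0.0766). In all 1 of 11 members rose (9.09%) and 2 fell (18.2%), beside 12.6% and 16.1% of all genes. Without any 1 of the 5 cows other than C, 1 member fell. Of 9 RGS genes, which shut off G proteins, RGS1 rose (2.54 ± 0.78, adjusted p = 0.0286). The RGS1 call ended without cow B, cow C, cow F or cow G (adjusted p 0.0583 to 0.145).

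**Figure D1:**
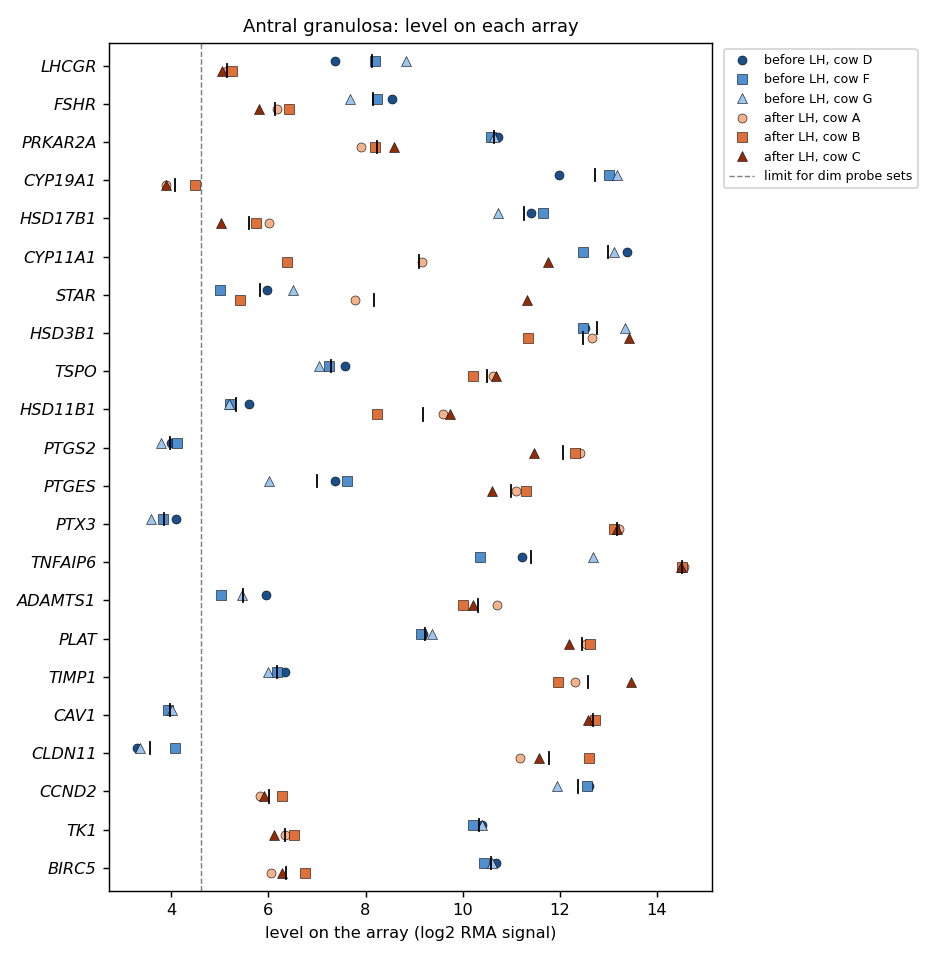
Log2 signal of 22 genes (rows) on each of the 6 antral granulosa arrays, with blue symbols before LH and orange to brown symbols after it, a vertical tick at each group mean and a dashed line at 4.62. The arrays before and after LH stand apart for all of these genes but STAR and HSD3B1, and cow C lies far from cows A and B for STAR and CYP11A1.

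Both enzymes of oestradiol synthesis on the array fell. Of the 18 steroid synthesis genes 4 rose and 4 fell, which is 22.2% each way beside 12.6% and 16.1% of all genes. CYP19A1, the aromatase, fell from 11.97, 13.02 and 13.18 to 3.89, 4.49 and 3.89, by at least 8.10 (adjusted p = 1.64e-07). HSD17B1, which turns oestrone into oestradiol, lay at 11.40, 11.65 and 10.72 before LH and 6.02, 5.75 and 5.04 after it and fell by 5.66 ± 0.35 (adjusted p = 2.37e-08). For both genes the 3 arrays after LH lay more than 4 below the lowest before it. HSD11B1, which turns cortisone into cortisol, went the other way, from 5.61, 5.22 and 5.18 to 9.60, 8.23 and 9.75, a rise of 3.86 ± 0.47 (adjusted p = 1.84e-05). TSPO, an outer mitochondrial membrane protein that binds cholesterol, rose by 3.22 ± 0.26 (adjusted p = 3.19e-07), and HSD17B10, a mitochondrial dehydrogenase, by 0.71 ± 0.14 (adjusted p = 0.00182). Both stood apart on all 6 arrays.

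The progesterone genes differed between cows after LH. STAR, which delivers cholesterol to the inner mitochondrial membrane, lay at 5.98, 5.0 and 6.51 before LH and 7.77, 5.41 and 11.31 after it. It was above every array before LH in cows A and C and between them in cow B, and was not called (2.34 ± 1.22, adjusted p = 0.206) except without cow B (adjusted p = 0.0395). CYP11A1, which cleaves the cholesterol side chain, lay at 13.39, 12.48 and 13.12 before LH and 9.16, 6.38 and 11.76 after it. Its mean fell by 3.90 ± 1.23 (adjusted p = 0.0314), with 5.38 between the highest and lowest cow after LH, and the call ended without any single cow but C (adjusted p 0.0833 to 0.137). On the antral arrays alone CYP11A1 just missed the threshold (adjusted p = 0.0527). HSD3B1, which makes progesterone from pregnenolone, lay at 12.51, 12.47 and 13.34 before LH and 12.66, 11.34 and 13.42 after it, and the groups overlapped. For STAR, CYP11A1 and HSD3B1 alike cow C was the highest and cow B the lowest of the 3 after LH.

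Of 27 cholesterol supply genes 7 were called lower, 1 higher and 19 neither, with a median of -0.78. LRP8, a lipoprotein receptor, lay at 7.70, 6.90 and 9.07 before LH and 4.49, 4.60 and 4.90 after it and fell by 3.22 ± 0.48 (adjusted p = 0.000124). INSIG1, which holds back sterol synthesis when sterol is plentiful, lay at 11.21, 11.29 and 11.80 before LH and 7.87, 7.86 and 9.42 after it and fell by 3.05 ± 0.67 (adjusted p = 0.00342). SOAT1, which esterifies cholesterol for storage, fell by 1.23 ± 0.20, and NPC1, which exports cholesterol from lysosomes, by 1.29 ± 0.30. Of the enzymes of the synthesis path itself, HMGCS1 and CYP51A1 were spread by cow and were not called. HMGCS1 lay at 12.73, 13.27 and 13.63 before LH and 11.08, 10.69 and 12.89 after it. CYP51A1 lay at 11.07, 11.52 and 11.70 before LH and 8.78, 8.39 and 10.81 after it. FDFT1 was called lower and TM7SF2 higher (1.01). Each call ended without any single cow but C (adjusted p 0.0836 to 0.14 for FDFT1 and 0.0566 to 0.161 for TM7SF2). The TM7SF2 call also ended with median centring (adjusted p = 0.0544). The count of falls was 16 without cow C and 4 without cow A or cow B, and no member rose when any 1 cow other than C was left out. Without cow C, HMGCS1 (adjusted p = 0.000251) and CYP51A1 (adjusted p = 1.70e-05) were called lower.

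Ovulatory mediators made up several of the largest rises. PTGS2, the inducible cyclooxygenase, lay at 3.99, 4.13 and 3.78 before LH and 12.41, 12.31 and 11.47 after it, a rise of at least 7.44 (adjusted p = 1.05e-07). PTGES, which makes prostaglandin E from its product, lay at 7.38, 7.61 and 6.01 before LH and 11.09, 11.30 and 10.61 after it, a rise of 4.0 ± 0.52 (adjusted p = 3.63e-05). Neither overlapped, and 3 of the 15 prostaglandin genes rose in all. PTGES3, another prostaglandin E synthase and a cochaperone, fell by 0.67 ± 0.12 (adjusted p = 0.000938). The receptors PTGER2, PTGER3 and PTGER4 and the degrading enzyme HPGD lay below the limit on every array. PTGFR, the receptor for prostaglandin F, lay at 5.27, 4.06 and 5.45 before LH and 4.95, 3.83 and 7.55 after it and was not called. Of the 2 falls 1 was called when any 1 cow other than G was left out.

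The hyaluronan matrix holds the cumulus together at ovulation, and its cross-linkers rose most. PTX3 lay at 4.11, 3.84 and 3.58 before LH and 13.22, 13.11 and 13.18 after it and rose by at least 8.55 (adjusted p = 2.10e-11). TNFAIP6 lay at 11.21, 10.35 and 12.68 before LH and 14.56, 14.51 and 14.49 after it and rose by 3.10 ± 0.61 (adjusted p = 0.00145), and its 3 values after LH are close to the brightest value of any probe set, 14.6 to 14.7 on those arrays. HAS2, the hyaluronan synthase of the follicle, lay at 8.20, 8.03 and 7.91 before LH and 8.05, 8.08 and 7.70 after it and was not called at its brightest probe set. A dimmer HAS2 probe set, under the limit before LH and between 4.70 and 5.58 after it, was called higher (adjusted p = 0.00048), and another read 0.44 (adjusted p = 0.0635), also with no overlap. CD44, the hyaluronan receptor, was not called. VCAN, a hyaluronan-binding proteoglycan, lay at 12.78, 12.83 and 12.99 before LH and 11.56, 11.75 and 10.64 after it and fell by 1.55 ± 0.48 (adjusted p = 0.0287). The VCAN call ended without cow A, cow D, cow F or cow G (adjusted p 0.0613 to 0.0952). HMMR, counted here as a hyaluronan receptor and also a spindle protein, fell by 3.03 ± 0.27 (adjusted p = 8.32e-07). Of the 19 members 2 rose (10.5%) and 3 fell (15.8%), near the 12.6% and 16.1% of all genes. Without cow F 4 members rose, and without cow A or cow F 1 fell.

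Of 41 proteases and protease inhibitors 12 rose and 5 fell, with a median of 0.10. ADAMTS1, a protease that cuts versican in the ovulating follicle, lay at 5.96, 5.03 and 5.45 before LH and 10.71, 10.02 and 10.21 after it and rose by 4.83 ± 0.32 (adjusted p = 4.49e-08). The plasminogen activators PLAT (3.22 ± 0.27) and PLAU (2.98 ± 0.50) and the activator's receptor PLAUR (2.77 ± 0.66) were higher as well, as were the inhibitors TFPI2 (at least 2.33), SERPINB8 (2.71 ± 0.44) and SERPING1 (2.63 ± 0.39), whose other probe set read 0.15. TIMP1, an inhibitor of matrix metalloproteinases, lay at 6.34, 6.18 and 6.0 before LH and 12.32, 11.97 and 13.47 after it and rose by 6.41 ± 0.42 (adjusted p = 3.72e-08). TIMP2, already bright, rose by 1.82 ± 0.23 (adjusted p = 2.06e-05). SERPINH1 (1.29 ± 0.16), the collagen chaperone, and ADAM12 (2.65 ± 0.40), a membrane protease, were among the 5 that fell. The collagenase MMP1 was higher by at least 0.22 (adjusted p = 0.0162), a call that ended without cow A, cow D, cow F or cow G (adjusted p 0.0602 to 0.0742). On the antral arrays alone MMP1 just missed the threshold (adjusted p = 0.0527). The metalloproteinases MMP2, MMP3, MMP9 and MMP13 were below the limit on every array. Without cow A or cow G 3 members fell, and the PLAUR call ended without cow G (adjusted p = 0.0539).

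Of 49 matrix genes 16 rose, against 12.6% of all genes, and 6 fell, with a median of 0.79. POSTN, a matricellular protein, lay at 3.01, 3.52 and 3.26 before LH and 11.66, 11.74 and 11.42 after it and rose by at least 6.98 (adjusted p = 1.5e-09). NID2, a linker of basement membranes, lay at 4.55, 5.04 and 4.05 before LH and 11.32, 11.30 and 12.84 after it and rose by 7.27 ± 0.64 (adjusted p = 6.88e-07). TNC, a matrix glycoprotein of moving tissues, lay at 4.31, 4.37 and 3.84 before LH and 10.81, 9.86 and 9.63 after it and rose by at least 5.47 (adjusted p = 7.54e-08), while a second probe set read 0.41. All 3 genes were near or below the limit before LH and above 9 after it in every cow. Thrombospondin THBS2 (4.29 ± 0.31), fibronectin FN1 (3.76 ± 0.30), fibulin FBLN1 (2.57 ± 0.31) and the matricellular CCN2 (3.08 ± 0.55) rose too. Laminin subunits divided: LAMB1 rose by 1.91 ± 0.37 (adjusted p = 0.00117), and LAMB2 fell by 0.97 ± 0.19 (adjusted p = 0.00123). Of the integrin receptors for these proteins, ITGA4 (at least 2.46) and ITGB1 (0.80 ± 0.10) rose and the other 14 of 16 were not called. ITGA5, at 4.19, 4.37 and 4.60 before LH and 5.07, 5.28 and 5.74 after it, was called higher without cow C (adjusted p = 0.0262) and on the antral arrays alone (adjusted p = 0.0132), and 1 integrin was called lower without cow G. The count of matrix falls was 2 without cow A, and 3 without cow D or cow F.

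COL3A1 and COL1A2, chains of the fibrillar collagens that stromal cells make, rose to uneven levels. COL3A1 lay at 4.07, 4.31 and 3.36 before LH and 6.18, 6.19 and 9.67 after it and rose by at least 2.72 (adjusted p = 0.00526). COL1A2 lay at 4.55, 5.08 and 4.57 before LH and 6.46, 6.43 and 9.32 after it and rose by 2.67 ± 0.64 (adjusted p = 0.0059). For both, cow C lay about 3 above cows A and B, yet cows A and B also lay above all 3 cows before LH. MGP, a matrix mineralisation inhibitor, had the same order of cows at 3.44, 3.40 and 3.45 before LH and 6.09, 4.19 and 9.43 after it. Its rise was at least 1.94 (adjusted p = 0.0172) and its call ended without cow A, cow D, cow F or cow G (adjusted p 0.0538 to 0.0723). On the antral arrays alone this probe set of MGP was not called either (adjusted p = 0.0963). Another MGP probe set, brighter than this one before LH, did not change (-0.08). It lay at 6.19, 6.89 and 6.44 before LH and 6.45, 6.93 and 5.90 after it. Further MGP probe sets read -0.24 and -0.43. Of 13 fibroblast markers 5 rose and 1 fell, with a median of 1.20, and 3 rose without cow A or without cow D. The fall, that of TCF21, was not called without cow A (adjusted p = 0.0537). The mean level of the 13 was 5.58, 5.53 and 5.44 before LH and 6.36, 6.17 and 7.43 after it. Of the defining markers, DCN lay at 6.09, 6.24 and 6.88 before LH and 8.77, 6.36 and 8.91 after it, with a call that ended without any single cow but B (adjusted p 0.0723 to 0.234). On the antral arrays alone DCN was not called (adjusted p = 0.131). COL1A1 lay at 6.13, 6.38 and 6.32 before LH and 7.2, 7.16 and 7.36 after it, with no overlap and a difference of 0.96 ± 0.51 that was not called (adjusted p = 0.214). It was called higher on the antral arrays alone (adjusted p = 0.00225). OGN was below the limit on every array. The part of stromal RNA in the matrix rises was not tested.

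Caveolar genes rose and the main gap junction gene fell. CAV1, the coat protein of caveolae, lay at 3.95, 3.94 and 4.02 before LH and 12.71, 12.73 and 12.59 after it and rose by at least 8.05 (adjusted p = 5.54e-12), the smallest adjusted p among the named genes. CAV2 (2.17 ± 0.22) and CAVIN1 (1.52 ± 0.38), which build caveolae with it, rose as well. The tight junction claudin CLDN11 lay at 3.29, 4.07 and 3.35 before LH and 11.18, 12.60 and 11.57 after it and rose by at least 7.16 (adjusted p = 1.64e-08), and the desmosomal DSC2 (at least 2.89) and PKP2 (1.93 ± 0.35) were higher. GJA1, the gap junction connexin that couples granulosa cells to one another, lay at 14.32, 14.22 and 14.33 before LH and 12.66, 12.89 and 13.09 after it and fell by 1.41 ± 0.15 (adjusted p = 4.84e-06). It stayed among the bright genes. Of 30 measured members 10 rose and 4 fell, with 2 falls without any 1 of cows A, B, D or G.

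Several genes of the actin cytoskeleton changed. RND3, a GTPase that dissolves stress fibres, lay at 5.09, 4.73 and 4.69 before LH and 12.15, 11.66 and 12.13 after it and rose by 7.15 ± 0.27 (adjusted p = 1.21e-10). VCL (2.79 ± 0.22), PALLD (2.0 ± 0.21), ZYX (1.40 ± 0.17) and FLNA (1.57 ± 0.23), which tie actin to adhesions or to other filaments, rose with RDX (1.42 ± 0.15) and EZR (1.57 ± 0.21), which tie it to the membrane. Second probe sets of ZYX and FLNA read 0.30 and 0.07. The troponin genes TNNI3 and TNNT1, known from striated muscle, fell. TNNI3 lay at 13.29, 13.40 and 13.18 before LH and 7.83, 8.02 and 7.95 after it and fell by 5.36 ± 0.25 (adjusted p = 1.5e-09), and TNNT1 fell by at least 2.58 (adjusted p = 3.91e-06). The troponin genes TNNC1, TNNC2, TNNI2, TNNT2 and TNNT3 were not called. The intermediate filament VIM (-0.81 ± 0.11) and tropomyosin TPM1 (-1.14 ± 0.16) were lower.

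Genes of mitosis and DNA replication fell almost throughout, and those of G1 were mixed. Of 49 mitosis and kinetochore genes 44 fell and none rose, with a median of -2.65, against 16.1% called lower over all genes. Of 44 DNA replication genes 37 fell and none rose, with a median of -1.19. Of 21 G1 cyclins and CDK inhibitors 7 fell, 3 rose and 11 were not called, with a median of -0.14. CCND2, the cyclin through which FSH drives granulosa growth, lay at 12.61, 12.56 and 11.95 before LH and 5.83, 6.29 and 5.91 after it and fell by 6.36 ± 0.26 (adjusted p = 4.02e-10). CCNE2 (-3.31 ± 0.33), CDK2 (-1.55 ± 0.22) and CDK4 (-0.87 ± 0.14), which carry cells into S phase, fell as well. CDKN1C, an inhibitor of cyclin-dependent kinases, lay at 6.21, 5.13 and 5.54 before LH and 10.13, 9.33 and 11.25 after it and rose by 4.61 ± 0.87 (adjusted p = 0.00107), with other probe sets at 0.95 and 0.11. CDKN2C, another such inhibitor, lay at 9.37, 9.33 and 9.55 before LH and 7.18, 7.63 and 7.24 after it and fell by 2.07 ± 0.21 (adjusted p = 2.88e-06). CCND1, E2F1 and MYC were not called.

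Genes of S phase fell steeply, and for TK1, DUT and PCLAF the groups did not overlap. TK1, which salvages thymidine, lay at 10.41, 10.22 and 10.40 before LH and 6.35, 6.52 and 6.12 after it and fell by 4.01 ± 0.20 (adjusted p = 2.81e-09). DUT, which clears dUTP, lay at 11.85, 11.94 and 12.03 before LH and 8.38, 8.50 and 8.42 after it and fell by 3.51 ± 0.19 (adjusted p = 6.28e-09). PCLAF, which rides on the replication clamp, lay at 10.85, 10.68 and 10.87 before LH and 4.40, 6.06 and 6.03 after it and fell by 5.30 ± 0.49 (adjusted p = 1.16e-06). The clamp PCNA (-2.06 ± 0.21), the helicase subunits MCM3 (-2.67 ± 0.21) and MCM4 (-2.21 ± 0.26) and the clamp loader RFC4 (-2.27 ± 0.19) fell, but the helicase subunit MCM7 (-0.23 ± 0.19) and the single-strand binder RPA1 (0.01 ± 0.17) did not pass the test. The other probe set of MCM3 read 0.08.

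Of the mitotic genes named here BIRC5, of the chromosomal passenger complex, fell most. BIRC5 lay at 10.69, 10.43 and 10.60 before LH and 6.05, 6.74 and 6.28 after it and fell by 4.22 ± 0.22 (adjusted p = 4.16e-09). SPC24, of the kinetochore, lay at 9.97, 10.13 and 10.11 before LH and 6.59, 6.25 and 6.17 after it and fell by 3.73 ± 0.23 (adjusted p = 2.0e-08), and UBE2C, of the anaphase-promoting machinery, fell by 3.85 ± 0.25 (adjusted p = 2.84e-08). CCNB2 (-3.92 ± 0.25), CDK1 (-3.17 ± 0.31), NCAPG (-4.0 ± 0.32) and BUB1 (-3.82 ± 0.29) followed. None of these genes had a cow after LH that overlapped a cow before it. The 5 mitotic members not called were CENPA, KIF18A, BUB3, STMN1 and ZWILCH, the first pair below the limit on every array. Without cow C, STMN1, which destabilises microtubules, was called higher.

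**Figure D2:**
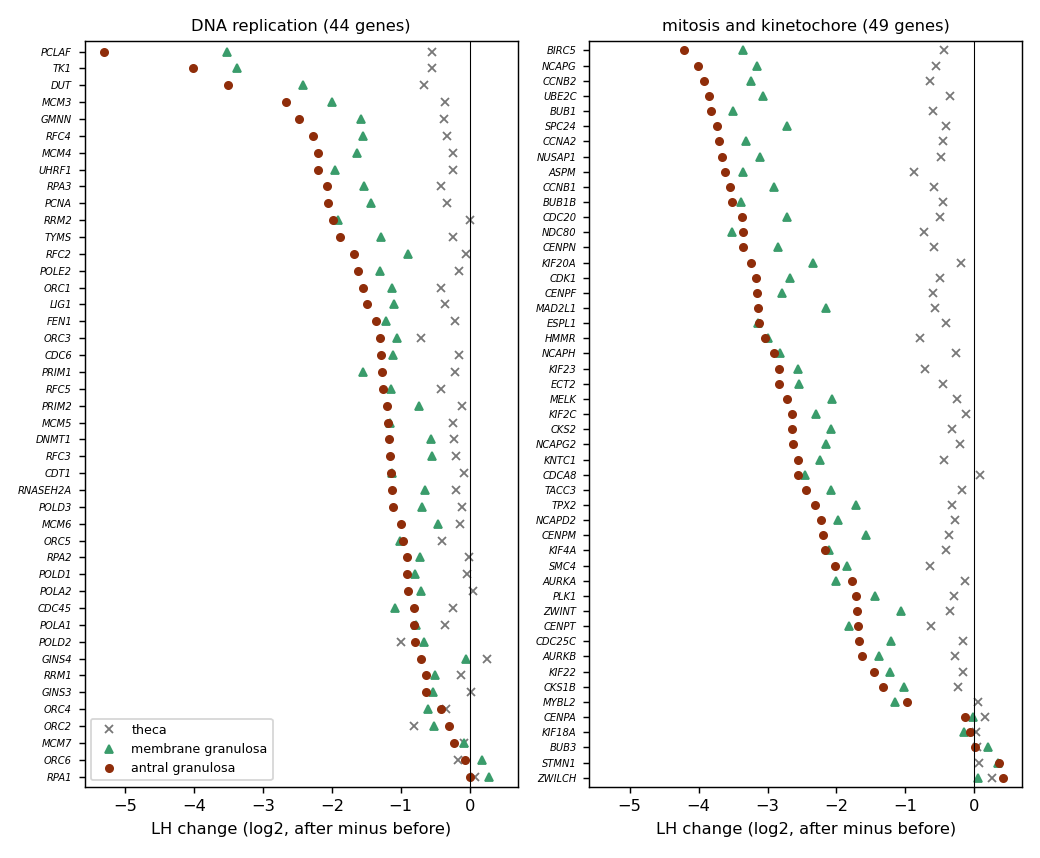
LH change (log2, mean after minus mean before, 3 cows each) of each measured DNA replication gene (left) and mitosis gene (right) in antral granulosa (brown circles), membrane granulosa (green triangles) and theca (grey crosses). The antral change was called more negative than that of theca for 31 of 44 replication genes and 42 of 49 mitosis genes. PCLAF, TK1 and DUT have the largest falls of the replication genes.

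Immediate early genes are those that cells switch on within minutes of a stimulus. Of 29 members 14 rose at 22 h, 15 were not called and none fell, with a median of 1.29. FOS lay at 7.89, 6.62 and 6.27 before LH and 12.38, 12.12 and 12.28 after it and rose by 5.33 ± 0.44 (adjusted p = 3.80e-07). SGK1, a kinase induced by steroids and cyclic AMP, lay at 5.61, 5.55 and 5.21 before LH and 10.01, 9.69 and 10.74 after it and rose by 4.70 ± 0.49 (adjusted p = 3.75e-06). EGR1 (2.99 ± 0.45), JUNB (2.05 ± 0.37), CEBPD (2.90 ± 0.49), the clock gene PER2 (2.48 ± 0.43) and the phosphatase DUSP1 (2.37 ± 0.39) rose as well, whereas FOSB, FOSL2, KLF4 and MYC were not called. The other probe set of EGR1 read 0.49. IER2 rose by 2.28 ± 0.34 at its brightest probe set, while its others read 0.25 and -0.09. The Tribbles pseudokinases parted. TRIB1 lay at 5.89, 4.30 and 3.83 before LH and 9.83, 8.71 and 9.84 after it and rose by 4.79 ± 0.47 (adjusted p = 1.84e-06). TRIB2 lay at 14.24, 14.29 and 14.46 before LH and 9.47, 10.81 and 7.98 after it and fell by 4.91 ± 0.68 (adjusted p = 6.40e-05). The other TRIB1 probe set, dimmer, read 0.67.

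Transcription factors and nuclear receptors showed smaller changes. ESR2, the oestrogen receptor of granulosa cells, lay at 6.89, 5.95 and 6.36 before LH and 4.48, 4.76 and 4.56 after it and fell by 1.80 ± 0.21 (adjusted p = 1.19e-05). NR2F1, an orphan receptor, rose by 2.07 ± 0.26 (adjusted p = 2.55e-05), and PPARG, a lipid-sensing receptor, fell by 1.5 ± 0.35 (adjusted p = 0.00536). NR4A2, induced by cyclic AMP, rose by 1.92 ± 0.46 (adjusted p = 0.00567), while its other probe sets read 0.17 and -0.007. PGR, the progesterone receptor, lay below the limit on every array. Of the 29 members 6 rose (20.7%) and 4 fell (13.8%), beside 12.6% and 16.1% of all genes. Without any 1 of cows C, D or F, 2 fell.

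In the TGF-beta family, INHBA, the beta A subunit of inhibin and activin, fell while INHA did not pass the test. INHBA lay at 14.67, 14.52 and 14.63 before LH and 9.93, 10.87 and 8.38 after it and fell by 4.88 ± 0.70 (adjusted p = 9.14e-05). TGFB2, a ligand, lay at 4.04, 4.49 and 4.15 before LH and 10.76, 11.32 and 9.67 after it and rose by at least 5.96 (adjusted p = 3.80e-07), and its receptor TGFBR2 rose by 2.38 ± 0.40 (adjusted p = 0.00041). The intracellular mediators moved in opposite directions, as SMAD2 fell by 1.88 ± 0.16 (adjusted p = 4.97e-07) and SMAD3 rose by 1.54 ± 0.31 (adjusted p = 0.00156), with a second SMAD3 probe set at 0.31. AMH, made by growing follicles, lay at 9.90, 10.43 and 8.63 before LH and 7.64, 7.96 and 7.30 after it and fell by 2.02 ± 0.47 (adjusted p = 0.00535), and FST, which binds activin, fell by 1.63 ± 0.42 (adjusted p = 0.01). ID3, a target of BMP signals, fell by 2.37 ± 0.22 (adjusted p = 1.35e-06). Of 29 members 4 rose (13.8%) and 6 fell (20.7%), beside 12.6% and 16.1% of all genes, and 7 rose without cow C.

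Of 14 genes of the IGF system 3 rose and 4 fell. IGF2 lay at 5.41, 5.29 and 5.62 before LH and 9.18, 8.89 and 10.63 after it and rose by 4.13 ± 0.54 (adjusted p = 3.30e-05) at its brightest probe set, while 3 dimmer probe sets read 1.56, 0.22 and near 0. IGF1R, the receptor, fell by 0.96 ± 0.20 (adjusted p = 0.00235), with its other probe set at 0.02. The binding proteins IGFBP4 (-2.73 ± 0.38) and IGFBP7 (-1.07 ± 0.16) fell, and IGFBP3 (1.93 ± 0.43) rose. Of 26 WNT and Hedgehog genes 2 rose, or 1 without cow G, and 4 fell, or 2 without cow B. The 2 rises are 7.69% and the 4 falls 15.4% of the list, beside 12.6% and 16.1% of all genes. The receptor FZD1 lay at 9.48, 9.98 and 9.90 before LH and 5.62, 6.04 and 6.33 after it and fell by 3.79 ± 0.25 (adjusted p = 4.49e-08). The secreted DKK3 lay at 3.81, 3.88 and 4.01 before LH and 12.55, 10.55 and 10.34 after it and rose by at least 6.53 (adjusted p = 8.29e-07). IHH, the Hedgehog ligand that granulosa cells send to theca, lay at 8.59, 8.61 and 3.64 before LH and 3.95, 3.31 and 3.13 after it and fell by at least 2.32 (adjusted p = 0.0103). Before LH cow G lay within the range of the cows after it, and the call ended without cow B, cow D or cow F (adjusted p 0.0526 to 0.0832). The IHH call also ended on the antral arrays alone (adjusted p = 0.0908).

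Of 40 genes of angiogenic factors and their receptors 5 rose (12.5%) and 6 fell (15%), and 8 rose without cow C. These shares are close to the 12.6% and 16.1% of all genes. PGF, a ligand of the VEGF receptor FLT1, lay at 8.38, 8.56 and 7.63 before LH and 5.36, 4.98 and 4.70 after it and fell by 3.18 ± 0.31 (adjusted p = 1.93e-06). FLT1 lay at 3.66, 3.67 and 3.60 before LH and 6.80, 7.69 and 6.29 after it and rose by at least 2.30 (adjusted p = 3.11e-05), while the other endothelial receptors KDR and TIE1 were below the limit on every array. Other FLT1 probe sets, also below the limit on every array, read -0.07 and 0.32 and were not called. ADM, a vasodilator peptide, lay at 10.47, 9.70 and 9.65 before LH and 13.17, 13.20 and 12.90 after it and rose by 3.15 ± 0.44 (adjusted p = 6.74e-05), and its receptor CALCRL rose by at least 1.20 (adjusted p = 0.000512). VEGFA lay at 12.34, 11.38 and 10.08 before LH and 7.92, 7.47 and 9.25 after it and fell by 3.06 ± 0.80 (adjusted p = 0.0111). Its groups did not overlap, and the call ended without cow B, cow D or cow F (adjusted p 0.0582 to 0.0883), while a second probe set read -2.02.

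Secreted peptides rose in 7 of 25 cases and fell in 4. NTS, neurotensin, lay at 4.0, 4.52 and 4.52 before LH and 11.60, 11.17 and 9.88 after it and rose by at least 6.26 (adjusted p = 1.87e-07). GAL, galanin, lay at 3.98, 4.23 and 4.44 before LH and 10.03, 8.50 and 7.31 after it and rose by at least 3.99 (adjusted p = 0.000437), and the granule proteins SCG2 (at least 5.04) and CHGB (at least 2.10) rose with them. The cows after LH were spread for SCG2, at 8.16, 9.50 and 11.34, and highest in cow C, whereas NTS, GAL and CHGB were lowest in that cow. OXT, the oxytocin precursor, lay at 8.95, 9.01 and 8.45 before LH and 12.47, 11.75 and 14.16 after it and rose by 3.99 ± 1.01 (adjusted p = 0.00892), and its call ended without cow G (adjusted p = 0.0566). NPR3, a receptor that clears natriuretic peptides, fell by at least 0.68 (adjusted p = 0.000678). The count of falls was 2 without any 1 of cows A, B or D.

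Of 57 cytokine and innate immune genes 9 rose and 3 fell, the first share near and the second below that of all genes. CD40, a receptor of the TNF family, lay at 6.6, 6.5 and 6.54 before LH and 10.76, 10.52 and 11.38 after it and rose by 4.34 ± 0.25 (adjusted p = 1.31e-08), although its dimmer probe set read -0.31. IL18, a cytokine, lay at 6.42, 4.55 and 4.56 before LH and 9.21, 9.55 and 10.67 after it and rose by 4.63 ± 0.62 (adjusted p = 4.36e-05). NFKBIA (2.25 ± 0.33), an inhibitor in cytokine signalling, and STAT3 (1.65 ± 0.30), which carries cytokine signals, rose, with another STAT3 probe set at 0.46. IL6R, the interleukin 6 receptor, lay at 9.19, 9.23 and 9.33 before LH and 4.71, 4.95 and 5.56 after it and fell by 4.18 ± 0.32 (adjusted p = 1.90e-07). The cytokines IL6, IL1A, IL1B and CXCL8 lay below the limit on every array. Without cow C 5 members fell rather than 3. Beside these, the mean level of the 24 leukocyte markers was 5.70, 4.95 and 4.81 before LH and 5.05, 5.21 and 5.37 after it. Of 26 genes of the BCL2 family and apoptosis 7 rose and 3 fell. TNFRSF6B, a decoy receptor, lay at 4.73, 4.98 and 4.66 before LH and 10.34, 10.45 and 10.65 after it and rose by 5.69 ± 0.24 (adjusted p = 5.71e-10). MCL1, which holds cell death back, rose by 1.21 ± 0.15 (adjusted p = 2.07e-05). BOK, which promotes it, rose by 1.17 ± 0.22 at its brighter probe set and was called lower, with -0.50, at the dimmer one.

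Redox genes moved in both directions. GCLC, the catalytic subunit of the first enzyme of glutathione synthesis, lay at 11.10, 9.83 and 10.55 before LH and 4.27, 4.34 and 5.17 after it and fell by 5.90 ± 0.34 (adjusted p = 1.15e-08). GCLM, its modifier subunit, lay at 7.83, 7.78 and 7.67 before LH and 9.26, 8.98 and 9.59 after it and rose by 1.51 ± 0.29 (adjusted p = 0.00134). Haem oxygenases parted likewise, HMOX2 rising by 3.08 ± 0.26 (adjusted p = 4.35e-07) and HMOX1 falling by 2.02 ± 0.39 (adjusted p = 0.0013). Metallothioneins MT2A (3.69 ± 0.55) and MT1A (3.27 ± 0.63) and the peroxiredoxins PRDX1 (0.94 ± 0.19) and PRDX2 (1.08 ± 0.14) were higher. NOS2, the inducible nitric oxide synthase, lay at 12.04, 11.93 and 11.16 before LH and 5.65, 5.74 and 5.36 after it and fell by 6.12 ± 0.39 (adjusted p = 2.63e-08). VNN2, a pantetheinase, lay at 6.09, 5.08 and 3.40 before LH and 11.42, 10.91 and 12.82 after it and rose by 6.86 ± 0.77 (adjusted p = 8.0e-06). In all 8 of 45 rose and 11 fell, and 7 fell without cow A.

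Of 43 chaperone and endoplasmic reticulum genes 12 fell and 7 rose. HERPUD1, of protein degradation in the reticulum, lay at 12.13, 12.13 and 12.66 before LH and 9.69, 9.63 and 10.57 after it and fell by 2.35 ± 0.27 (adjusted p = 9.42e-06), and SEC61B, of the translocation channel, fell by 0.98 ± 0.12 (adjusted p = 1.32e-05). The chaperones HYOU1 (-1.44 ± 0.34) and HSPA5 (-0.94 ± 0.26) fell, while BAG3 (1.44 ± 0.23), a cochaperone of protein clearance, rose. The falls were 6 or 7 without any 1 of cows A, B, D or G. The HSPA5 call ended without cow A, cow B, cow F or cow G (adjusted p 0.053 to 0.0957), and that of HYOU1 without cow D (adjusted p = 0.0545). The dimmer probe sets of HYOU1 read -0.42, -0.15 and -0.40.

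Proteasome subunits fell in 22 of 38 cases and rose in 2, with a median of -0.54. PSMB2, a core subunit, lay at 11.71, 11.62 and 11.65 before LH and 10.76, 10.64 and 10.99 after it and fell by 0.86 ± 0.12 (adjusted p = 5.81e-05). PSMB3 lay at 11.74, 11.79 and 11.65 before LH and 10.56, 10.42 and 10.86 after it and fell by 1.12 ± 0.19 (adjusted p = 0.000397). PSMB10, a subunit of the immunoproteasome, lay at 7.85, 7.93 and 7.07 before LH and 8.73, 8.65 and 9.25 after it and rose by 1.26 ± 0.25 (adjusted p = 0.00158). Of 88 genes of the citric acid cycle and the respiratory chain 30 fell and 5 rose, with a median of -0.37. IDH3A (-2.81 ± 0.42) and MDH2 (-1.57 ± 0.28), of the cycle, and NDUFS4 (-1.51 ± 0.20), of complex I, fell, but SUCLA2 (2.38 ± 0.29), IDH2 (1.37 ± 0.16) and NDUFB11 (1.66 ± 0.17) rose. The count of falls was 46 without cow C, 18 without cow A or cow D and 19 without cow B, and the count of rises 3 without any 1 cow but A.

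Glycolysis showed few calls, 2 higher and 4 lower of 32. ALDOC, an aldolase, lay at 10.12, 9.69 and 9.81 before LH and 7.74, 7.79 and 7.65 after it and fell by 2.15 ± 0.16 (adjusted p = 1.56e-07), and PFKM, a phosphofructokinase subunit, fell by 1.31 ± 0.15 (adjusted p = 1.25e-05), with other probe sets at -0.20 and -0.99. PDK3, which closes pyruvate dehydrogenase, lay at 8.85, 8.48 and 8.64 before LH and 10.94, 10.76 and 11.01 after it and rose by 2.25 ± 0.19 (adjusted p = 3.76e-07), and ENO2, an enolase, rose by at least 1.52 (adjusted p = 9.68e-06). Falls were 12 without cow C and 2 without cow A. Of 63 cytosolic ribosomal proteins 21 fell and none rose, all by less than 0.60, with a median of -0.23. That count was 12 with quantile normalization, 24 with median centring, 11 on the antral arrays alone, 7 without cow A, 9 without cow B, 8 without cow D and 12 without cow C or cow G. In lysosomes GUSB, a glucuronidase, lay at 9.22, 8.57 and 8.71 before LH and 11.95, 11.57 and 11.58 after it and rose by 2.87 ± 0.24 (adjusted p = 3.51e-07). OPTN, an autophagy receptor, lay at 11.37, 11.38 and 12.16 before LH and 8.20, 8.11 and 8.58 after it and fell by 3.34 ± 0.27 (adjusted p = 2.80e-07). Of 28 members of that list 5 rose and 5 fell (17.9% each way, beside 12.6% and 16.1% of all genes), and 3 fell without cow A or cow B.

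**Figure D3:**
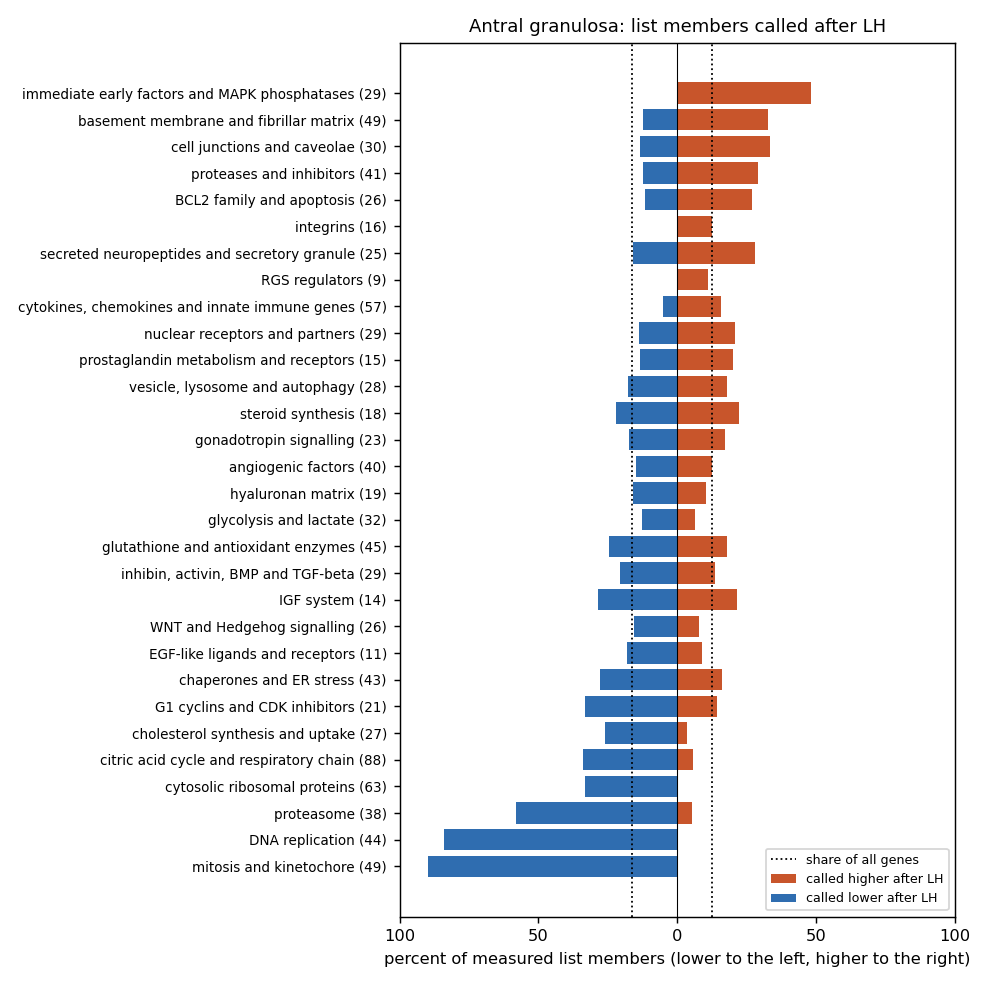
Percent of measured members of 30 gene lists called higher (orange, to the right) or lower (blue, to the left) after LH in antral granulosa, with the number measured in brackets and dotted lines at the shares over all 9155 genes, 12.6% and 16.1%. Mitosis, DNA replication and proteasome genes lie far beyond the lower line, and immediate early genes beyond the higher one.

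Several genes outside the lists changed as much as those in them. Among rises were C5H12orf75 (6.76 ± 0.23), whose product is little studied, the glutamate receptor subunit GRIA3 (at least 4.93), the collagen prolyl hydroxylase P4HA3 (6.24 ± 0.30) and the adhesion receptor ADGRL4 (at least 5.03). NDRG1, a hypoxia-responsive gene, lay at 5.88, 4.98 and 4.29 before LH and 11.33, 10.65 and 11.15 after it and rose by 5.99 ± 0.35 (adjusted p = 1.39e-08). GNG2, a G protein gamma subunit, lay at 6.07, 4.97 and 4.22 before LH and 10.99, 10.74 and 11.20 after it and rose by 5.89 ± 0.34 (adjusted p = 1.31e-08). In both, cow D was the highest before LH, and the groups did not overlap. TM4SF1 (at least 5.01), RGCC (5.56 ± 0.44) and RUBCNL (at least 4.50) rose as well. The other probe sets of C5H12orf75 and RGCC rose by less, 2.05 and 0.49.

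Among falls, CHST8, a sulfotransferase of glycoprotein hormone sugars, lay at 11.27, 11.26 and 10.99 before LH and 4.45, 4.48 and 4.50 after it and fell by at least 6.55 (adjusted p = 1.5e-09). SRGN, a proteoglycan core protein of secretory granules, lay at 13.71, 14.16 and 13.48 before LH and 8.64, 9.41 and 8.59 after it and fell by 4.90 ± 0.45 (adjusted p = 1.08e-06). It was among the brightest genes before LH. PLEK (by at least 4.48), PRR15 (-4.97 ± 0.30), CHN2 (by at least 4.03), a Rac GTPase-activating protein, GPT (-4.27 ± 0.29), an aminotransferase, and ST3GAL4 (-3.98 ± 0.19), a sialyltransferase, fell too. PDSS1, of coenzyme Q synthesis, fell by 4.04 ± 0.52 (adjusted p = 3.25e-05), and its dimmer probe set fell by 0.77. GUCA1A, a calcium sensor of guanylate cyclase, was spread before LH at 9.21, 10.54 and 7.01 and lay at 5.04, 4.05 and 3.99 after it.

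Cow C stood apart after LH. For 133 genes the 3 arrays after LH spanned at least 2, and cow C was the farthest from the others in 96 of them and the highest in 101. The widest span was that of XCL1, a chemokine, at 4.83, 3.87 and 4.75 before LH and 9.24, 4.62 and 13.63 after it, followed by STAR. A2M, a protease inhibitor of plasma, lay at 4.96, 4.18 and 4.12 before LH and 6.52, 5.93 and 10.31 after it, with all 3 cows after LH above all 3 before it, and its call ended without cow C, cow D, cow F or cow G (adjusted p 0.0552 to 0.105). The A2M call also ended on the antral arrays alone (adjusted p = 0.0711). KIT, the receptor of stem cell factor and here an oocyte-list marker, was spread before LH instead, at 7.51, 5.54 and 4.17 before LH and 10.84, 11.11 and 10.30 after it, and rose by 5.01 ± 0.62 (adjusted p = 1.89e-05). GDF9 and ZP3, made by the oocyte, stayed low, between 4.78 and 5.5 and between 4.25 and 5.35.

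Before LH, 115 genes spanned at least 2, and cow D was the highest in 77 of them. Leukocyte markers were part of that spread: CD68 lay at 7.71, 5.90 and 4.90, LAPTM5 at 7.21, 4.92 and 5.24, ITGB2 at 6.75, 4.50 and 4.60 and AIF1 at 8.20, 6.19 and 5.83 in cows D, F and G. Without cow D, CD14 (adjusted p = 0.00676) and AIF1 (adjusted p = 0.0382) were called higher after LH, and without cow C 1 leukocyte marker, PTPRC, was called lower. Cow G differed in other genes, among them IHH and MYO10, a myosin, at 7.89, 8.67 and 3.90 before LH. The part of leukocyte RNA in these spreads was not tested.

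**Figure D4:**
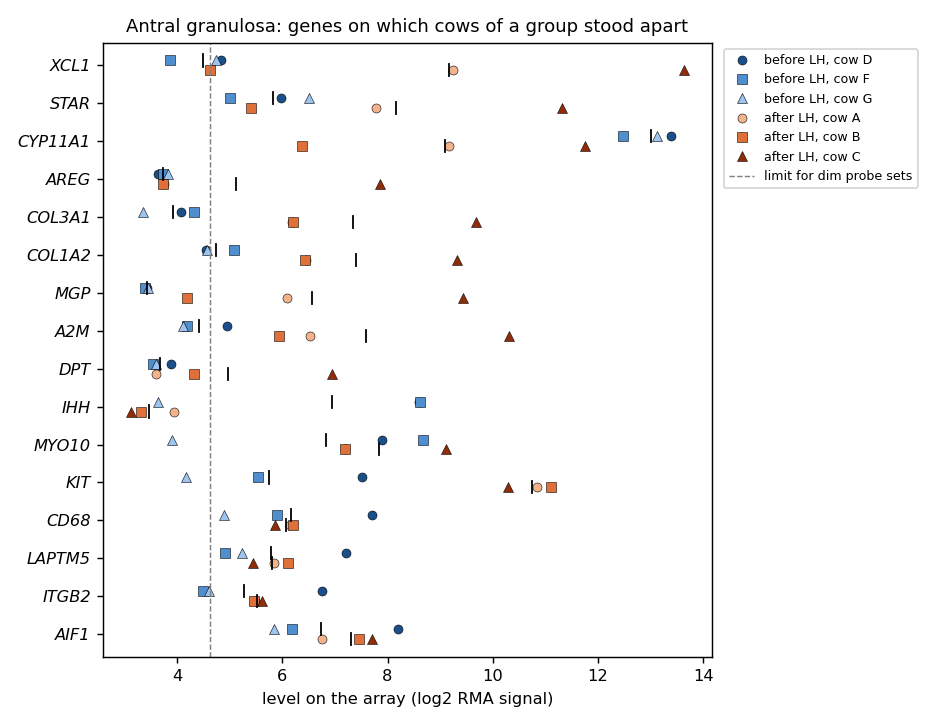
Log2 signal of 16 genes on each antral granulosa array, with a symbol for each cow, ticks at group means and a dashed line at 4.62, for genes on which the cows of a group were spread. Cow C is the highest of the cows after LH from XCL1 to DPT, and cow D is the highest before LH for KIT, CD68, LAPTM5, ITGB2 and AIF1.

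Compared with membrane granulosa of the same follicles, the LH change was not found to differ for any gene. Limma with the cow as a block called 0% of genes higher and 0% lower for the difference, while 2236 of 24016 probe sets (9.31%) had an unadjusted p under 0.05. Differences between populations use the measured levels, also where a group lay below the limit. The smallest adjusted p was that of CAV1, 0.0503, for a difference of 2.33 ± 0.28, with changes of 8.71 in antral and 6.37 in membrane granulosa. CAV1 was called with quantile normalization (adjusted p = 0.0352), without the dimmest probe sets (0.0446), with 1 probe set per gene (0.0224), with a trended robust fit (0.0141), with the antral and membrane arrays alone (0.0377) and without cow F (0.00817) or cow G (0.0484). It was not called with median centring (0.0591), without the block (0.0865) or without cow A, B, C or D (0.21 to 0.453). The antral and membrane arrays alone also called ADAMTS1, 4.83 in antral against 3.09 in membrane granulosa, and DKK3, 7.25 against 5.0. Without cow F 6 probe sets were called higher, NID2 (7.27 against 3.23 in all cows) and CYP17A1 among them. The CYP17A1 difference of 4.50 went with a fall in membrane granulosa, since its antral level did not rise. Without cow G 2 probe sets were called higher and 18 lower, IHH, GUCA1A and CTSL among the latter. A missed threshold with 3 cows a group does not show that the populations responded alike.

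Against theca the change differed for many genes. The difference between the antral and the theca change was called higher for 639 genes (6.98%) and lower for 736 (8.04%). CAV1 had the largest positive difference, 7.73 ± 0.28 (adjusted p = 4.77e-08), as it changed by 0.98 in theca. CLDN11 followed with 7.47 ± 0.57 (adjusted p = 1.37e-05), then NID2 (6.71 ± 0.71), DKK3 (6.10 ± 0.37) and TCIM (5.56 ± 0.52), which is a regulator of WNT signalling and lay at 3.79, 3.52 and 3.10 before LH and 10.24, 8.28 and 9.54 after it in antral granulosa. The largest negative differences were those of CCND2 (-4.93 ± 0.30, adjusted p = 2.93e-06), PCLAF (-4.76 ± 0.50), SRGN (-4.54 ± 0.42), GUCA1A (-4.30 ± 0.61) and ADAMTS4 (-3.97 ± 0.75, adjusted p = 0.00387). ADAMTS4, a protease that cuts aggrecan, fell by 2.59 ± 0.82 in antral granulosa, at 8.17, 6.11 and 7.90 before LH and 4.45, 3.90 and 6.04 after it, where its call ended without cow A, cow B, cow D or cow G (adjusted p 0.0881 to 0.143), and changed by 1.38 in theca.

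By list, the differences from theca were most frequent in cell division. Of 49 mitosis genes 42 had a change more negative than in theca at an adjusted p under 0.05 and none more positive, with medians of -2.65 in antral granulosa and -0.36 in theca. Of 44 replication genes 31 were more negative, with medians of -1.19 and -0.23. Matrix genes had 10 of 49 more positive and 5 more negative. No ribosomal protein differed, and of 29 immediate early genes 6 were more positive and 1 more negative, with medians of 1.29 and 1.0. PTX3 is an example of a shared rise of unequal size, 9.33 in antral granulosa and 6.76 in theca (adjusted p = 0.000406 for the difference), and INHBA of a shared fall, -4.88 and -5.48, whose difference was 0.60 ± 0.46 (adjusted p = 0.513). The number of called probe sets was 2698, and it was 1753 without cow B and 1485 without the cow as a block.

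**Figure D5:**
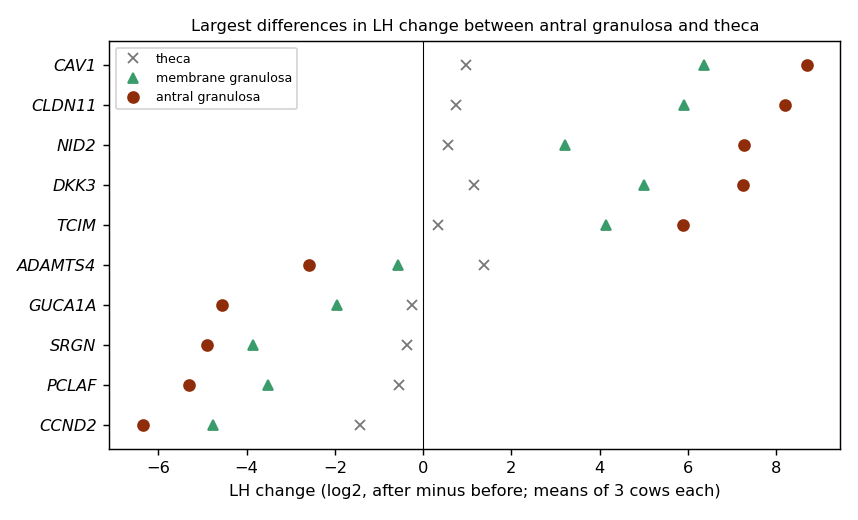
LH change (log2, means of 3 cows before and 3 after) in antral granulosa (brown circles), membrane granulosa (green triangles) and theca (grey crosses) for the 10 genes with the largest called differences between antral granulosa and theca. Theca lies within 1.5 of 0 for these genes, and ADAMTS4 is on opposite sides of 0 in antral granulosa and theca.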

How the data were processed

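RNA of bovine antral granulosa was labelled with biotin and read on Affymetrix arrays. The authors deposited log2 values, made with RMA in Partek 6.5, per the submitters' processing notes. No intensities or detection calls were used here, so the number of arrays limits the precision, and whether the animals' samples were prepared together is not given in the sources used here.

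Affymetrix controls were left out. Of 24016 probe sets 13292 had 1 gene symbol in the platform annotation, 86 had several and 10638 none, and 13263 of the symbols were found in the RefSeq gene table. The brightest probe set by mean over 18 arrays stood for a gene, which gave 9155 genes. Limma 3.58.1 in R 4.3.3 fitted the means of the 6 groups (antral, membrane and theca, before and after LH) over all 18 arrays, and p-values were adjusted over 24016 probe sets. Differences in the LH change between populations were fitted with the cow as a block. The standard errors of the LH change thus rest on the spread within all 6 groups of 3 cows, and not on the antral arrays alone. In that fit the 3 arrays of a cow were treated as independent. Counting error has no part in the standard errors. Tables were made in Python 3.11.15 with pandas 2.3.3, and the fits were tested on simulated data.

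Members and gene lists were chosen with earlier results of these data known. Genes named were the 25 largest called rises and the 25 largest called falls without overlap, other than placeholder symbols. Added to them were up to 5 members per list by smallest adjusted p, 18 follicle genes, all cell type markers, and the 5 largest called differences in each direction. Other genes were chosen after their values were seen.

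Alternatives were quantile normalization, median centring, a filter on dim probe sets, 1 probe set for each gene, a 2-fold minimum, a trended robust fit, the antral arrays alone, blocks, and leaving out each cow. The replicate numbers did not pair the cows: deviations of same-numbered antral arrays correlated at -0.17, 0.10 and -0.13. A planned description of promoters was not made, since no promoter sequences were used here. The summary of 1 gene list is not reported here.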

Additional observations from a re-analysis of the deposited data

Results flagged for a closer look

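The change after LH differed between antral granulosa and theca, by limma's test of the difference with the cow as a block, for the 10 genes that the naming rule took from that comparison. The differences in log2 change were 7.73 for CAV1, 7.47 for CLDN11, 6.71 for NID2, 6.10 for DKK3 and 5.56 for TCIM, where antral granulosa rose more. They were -4.93 for CCND2, -4.76 for PCLAF, -4.54 for SRGN, -4.30 for GUCA1A and -3.97 for ADAMTS4, where antral granulosa fell more or theca rose. Beside these, 5 of 13 fibroblast markers rose in antral granulosa, with the highest mean level in cow C, and the part of other cells' RNA in these differences was not tested.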

How the results depend on the processing

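The LH comparison called 5391 probe sets, 2473 higher and 2918 lower. With a 2-fold minimum it called 2720 (1350 higher, 1370 lower), and with 1 probe set per gene 2742 (1203 and 1539), where fewer were tested. Without 1 cow it called 3932 to 5791, with 1872 to 2692 higher and 2038 to 3099 lower. The replicate numbers did not pair the cows, and with the replicate block the comparison called 3883 (1824 higher, 2059 lower). Against theca 2698 probe sets were called, with each cow as a block, but 1485 with the cow left out of the model (718 higher, 767 lower) and 1506 with 1 probe set per gene (694 and 812). Without 1 cow the theca comparison called 1753 to 2401, with 920 to 1196 higher and 823 to 1280 lower. Against membrane granulosa 0 were called, but 1, higher, with quantile normalization, without the dimmest probe sets, with 1 probe set per gene or with the trended robust fit. With only those populations 3 were called, all higher, and without 1 cow 0 to 20, with 0 to 6 higher and 0 to 18 lower. The cause of these shifts was not tested. Among named genes called in either of the fits compared, none reversed direction. Changes of sign in genes called in neither fit were not counted. On the antral arrays alone 9 of the named genes gained a call and 15 lost it. Probe sets near 4.62 carry little signal, which limits falls to that level.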
